A study of Mus musculus with 16 samples.

Results

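The 32 genes described here encode constitutive subunits of the mouse proteasome, 14 of the 20S core and 18 of the 19S regulatory particle. They were chosen by gene symbol, and the inducible subunits of the immunoproteasome were left out. Sem1, a small subunit of the regulatory particle, is not among the 32 and is described with the related genes. All 32 symbols matched an Ensembl gene in the count table of 53801 gene IDs, and all 32 were among the 14351 genes with enough counts to be tested. The lowest count of any of them in any liver was 239 reads.

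RNA was sequenced from whole livers of 16 mice, 4 in each of 4 groups. The groups were knockouts fed a high-fat diet, controls fed a high-fat diet, knockouts fed normal chow and controls fed normal chow. The knockout is of Degs1, which encodes dihydroceramide desaturase, and was restricted to the liver. The labels used here give no Cre driver, strain, sex, age or length of feeding, and they do not say what allele the controls carry. Each liver has its own animal number (82 to 92 in high-fat knockouts, 61 to 76 in high-fat controls, 179 to 187 in chow knockouts, 194 to 220 in chow controls). Diet and genotype cannot be told apart from whatever else differs between these blocks of numbers. Livers are numbered 1 to 4 within each group.

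The proteasome is the barrel-shaped protease that degrades ubiquitin-tagged proteins in the cytosol and nucleus. Its core is built from rings of alpha subunits, which gate the entrance, and rings of beta subunits, some of which carry the proteolytic sites. The regulatory particle has a base of ATPases, which unfold the substrate and thread it into the core, and a lid that holds the deubiquitinase. In mammals, transcription of many subunit genes rises together when proteasome activity is blocked, and this response runs through the transcription factor Nfe2l1 (also called Nrf1), which binds antioxidant response elements. The liver is a tissue in which loss of Nfe2l1 is known to lower subunit expression and to cause steatosis in mice.

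Because the subunit genes are known to share this regulator, their promoters were searched for the core of its element, TGACNNNGC, on both strands of the 250 bases before the gene start in RefSeq (GRCm38.p6). Windows were matched for 26 of the 32 genes. Psmb1, Psmb2, Psmb7, Psmc3, Psmd3 and Psmd7 had none matched. The core was in 5 of the 26 genes (19.2%), which were Psmb5, Psmb6, Adrm1, Psmc6 and Psmd12. Counted by window it was in 5 of their 28 windows and in 10.2% of all 32851 windows of that length. The CCAAT box was in 11 of the 26 genes (42.3%), in 11 of their 28 windows and in 33.8% of all windows. No match of either motif overlapped the other. A match describes the letters and not a bound site. The stretches of 3 of these promoters that lie outside annotated exons are shown, with the match in capitals, because they belong to both of the catalytic subunits with a match and to a ubiquitin receptor.
Psmb5: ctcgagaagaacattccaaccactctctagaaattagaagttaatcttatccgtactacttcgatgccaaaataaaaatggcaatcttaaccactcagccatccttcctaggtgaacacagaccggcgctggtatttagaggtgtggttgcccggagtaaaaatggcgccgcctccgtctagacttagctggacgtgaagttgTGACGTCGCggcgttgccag
Psmb6: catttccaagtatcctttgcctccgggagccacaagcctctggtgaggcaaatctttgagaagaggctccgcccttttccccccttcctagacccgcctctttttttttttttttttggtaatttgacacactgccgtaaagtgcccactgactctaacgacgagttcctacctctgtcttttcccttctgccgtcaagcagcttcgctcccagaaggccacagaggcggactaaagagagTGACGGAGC
Adrm1: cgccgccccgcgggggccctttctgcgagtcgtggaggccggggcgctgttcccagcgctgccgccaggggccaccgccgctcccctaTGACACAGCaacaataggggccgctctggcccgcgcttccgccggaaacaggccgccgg
The Psmb5 stretch is chr14:54618023-54618245 on the minus strand, and its match begins 47 bases upstream of the start. The Psmb6 stretch is chr11:70525107-70525356 on the plus strand, with the match 9 bases upstream. The Adrm1 stretch is chr2:180171338-180171484 on the plus strand, with the match 162 bases upstream.

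Total counts were 13572441 to 16559537 in high-fat knockouts, 14020001 to 18728453 in high-fat controls, 11938596 to 18235419 in chow knockouts and 14417061 to 23250885 in chow controls. Degs1 itself was at 26.1 to 41.6 CPM in high-fat knockouts against 60.2 to 100.9 CPM in high-fat controls, and at 35.9 to 39.3 CPM in chow knockouts against 80.4 to 87.9 CPM in chow controls, so each label matched its group (CPM stands for counts scaled to a common library size). The log2 fold change of Degs1 was -1.23 on the high-fat diet (edgeR adjusted p = 0.00376) and -1.16 on chow (0.0123), with an exact two-sided permutation p of 0.0286 for each diet, the smallest that 4 against 4 livers can give. Albumin, the defining hepatocyte message, was at 40870 to 105670 CPM over the 16 livers. High-fat control 3 stood apart from the rest of its group, so results that use it are also given without it for the 32 genes, their sub-complexes and the related lists. Counts assigned to sense-intronic genes and to the TEC biotype, taken as a measure of unspliced RNA, made up 0.0218% of its library. That share was 0.162% to 0.191% in high-fat knockouts, 0.0512% to 0.164% in the other high-fat controls, 0.0463% to 0.0878% in chow knockouts and 0.0263% to 0.0411% in chow controls. The nuclear RNA Malat1 was at 180 CPM in high-fat control 3, while the remaining high-fat controls had 1021 to 4028 CPM and high-fat knockouts 2949 to 3512 CPM.

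The 32 genes were all expressed in every group, at levels that spread over an order of magnitude once divided by exon length. Exon length here is that of all annotated exons of a gene combined, which can exceed the length of the message made in liver. Psmb6, the caspase-like catalytic subunit, was the highest at 62.0 ± 15.8 CPM per kb (SD over 16 livers), followed by the alpha ring subunit Psma6 at 60.5 ± 21.6 and the structural beta subunit Psmb4 at 55.8 ± 14.6 CPM per kb. These 3 means lay within their SDs of each other. The genes share the same livers, so that SD does not measure their difference within a liver, which was not tested. Psmb5, the chymotrypsin-like subunit, was at 44.9 ± 12.6 CPM per kb and Psmb7, the trypsin-like subunit, at 31.5 ± 6.78 CPM per kb. The lowest was Adrm1, a ubiquitin receptor of the base, at 6.39 ± 0.78 CPM per kb, below Psmd11 of the lid at 12.96 ± 1.92 CPM per kb. This order depends on the annotated length. Before division Psma5 was the lowest at 28.1 CPM, next to Adrm1 at 28.5 CPM, and Psmd2 the highest at 183 CPM. Livers of the same group were most alike for Psmd3, a lid scaffold, with a within-group SD of 0.10 on the log2 scale. They were least alike for the alpha subunit Psma7, with 0.38. High-fat control 3 was at 218.3 CPM for Psma7, and the other high-fat controls at 75.55 to 96.18 CPM. The SD of Psma7 was 68.2 CPM in high-fat controls, 5.27 in high-fat knockouts, 12.4 in chow knockouts and 3.11 CPM in chow controls. Gene boundaries affect a few of these levels: exons of Psmd13, Psmb7 and Psmc3 overlap Sirt3, Nek6 and Slc39a13 on the other strand, whose mean counts were 124%, 53.7% and 5.09% of theirs. Whether strand was used in counting is not stated in the available sources, so reads of these pairs cannot be told apart.

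**Figure D1:**
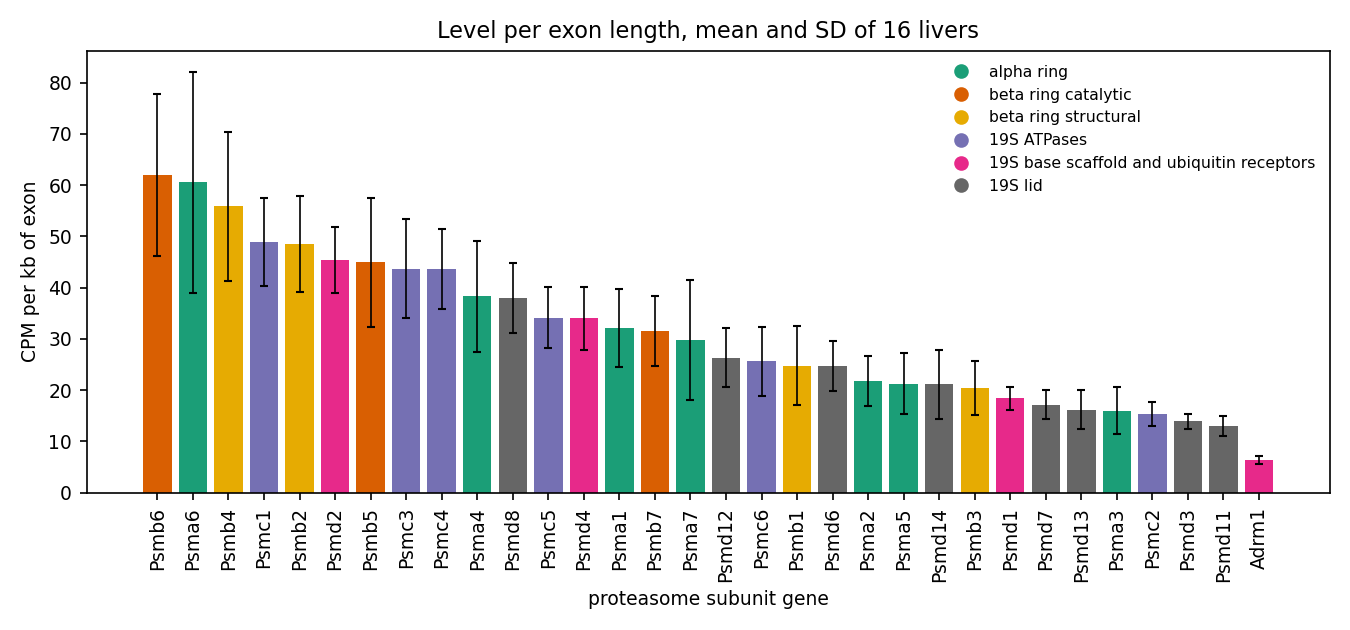
Level of each of the 32 genes as CPM per kb of all annotated exons combined (bars, mean of 16 livers, and lines, SD), coloured by sub-complex. Psmb6, Psma6 and Psmb4 are highest, at 62.0, 60.5 and 55.8, and Adrm1 is lowest at 6.39.

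Set against high-fat controls, high-fat knockouts had lower summed proteasome messages, but no single gene passed the test across all genes. The summed level of the 32 genes was 2276, 2045, 2012 and 2249 CPM in high-fat knockouts, against 2355, 2413, 4019 and 2736 CPM in high-fat controls. Every knockout lay below every control in this sum, and control 3 lay far above the others. This order depends on the TMM scaling, whose factors were 1.11 to 1.21 in high-fat knockouts and 0.879 to 1.07 in high-fat controls. As an unscaled share of all counts the 32 genes made up 0.274%, 0.247%, 0.228% and 0.249% in high-fat knockouts, against 0.248%, 0.250%, 0.353% and 0.292% in high-fat controls, and the groups overlapped. In edgeR's quasi-likelihood test with Benjamini-Hochberg adjustment at 0.05, 0 of the 32 genes were called, against 0.111% of all genes tested. At an unadjusted p under 0.05, 24 of the 32 were lower and 0 higher, where 12.8% of all genes tested were lower. DESeq2 called 1 gene lower, Psmb1 (adjusted p = 0.0352), against 2.73% of genes, and limma-voom called 0. With no filter on low counts edgeR called 6 lower, Psma3, Psma6, Psma7, Psmb1, Psmb6 and Psmd14, against 1.43% of genes. The log2 fold change was below 0 for 31 of 32, against 47.8% of all genes, with a median of -0.45 against 0.03 over all genes. Groups did not overlap for 12 of 32, all lower in knockouts, against 7.78% of all genes that were lower without overlap. Bulk livers do not separate fewer cells of a type from less RNA per cell.

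**Figure D2:**
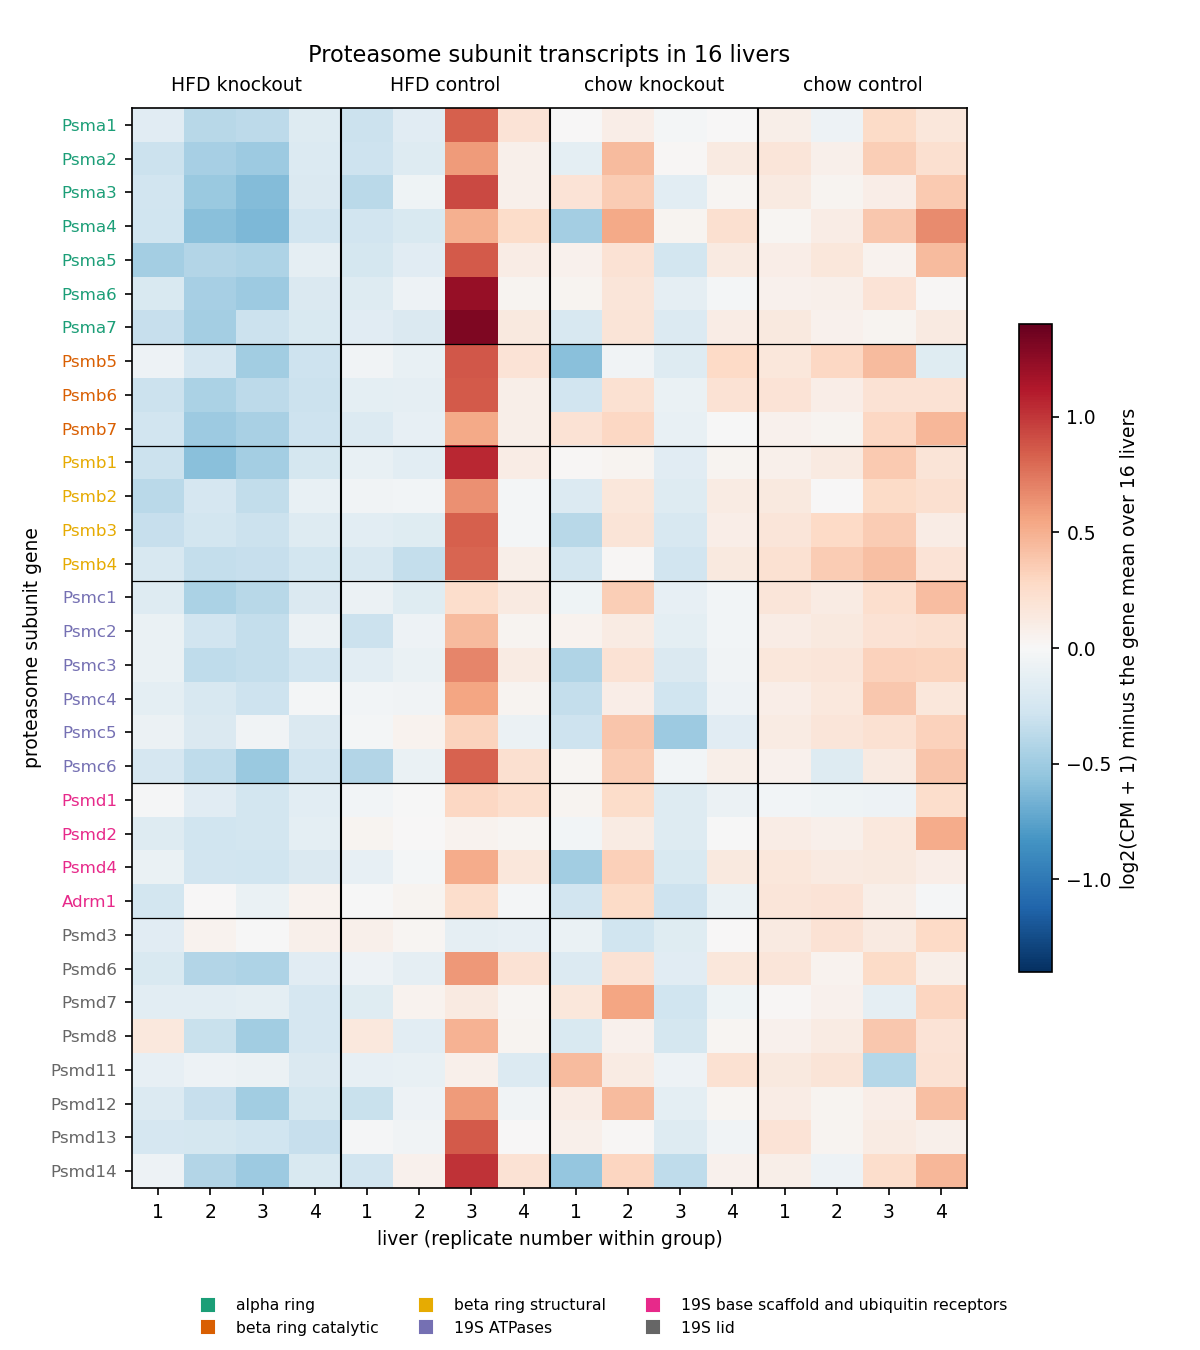
Level of each of the 32 genes (rows, by sub-complex) in each of the 16 livers (columns, high-fat groups before chow groups, knockouts before controls), as log2 CPM minus the gene's mean over all livers. High-fat control 3 is above the rest of its group for 31 of 32 genes.

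The 14 core genes had a median log2 fold change of -0.55 in high-fat knockouts and the 18 genes of the regulatory particle one of -0.33. All 14 core genes were below 0. The ratio of summed core to summed regulatory particle CPM was 0.649, 0.637, 0.659 and 0.694 in high-fat knockouts, against 0.669, 0.671, 0.971 and 0.741 in high-fat controls. The groups overlapped in this ratio, and control 3 was the highest of all 16 livers, with 0.787 the next highest.

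Among the catalytic subunits, Psmb6 (chr11:70525367-70527858, plus strand) was at 91.6, 83.2, 87.4 and 91.6 CPM in high-fat knockouts, against 103, 103, 206 and 120.0 CPM in high-fat controls. Psmb7 (chr2:38588036-38644087, minus strand) was at 87.6, 73.6, 76.5 and 86.0 CPM in high-fat knockouts, against 92.0, 97.1, 153 and 112 CPM in high-fat controls. All knockout livers were below all control livers for both genes. Psmb5 (chr14:54614119-54618022, minus strand) was at 37.3, 33.1, 27.6 and 31.8 CPM in high-fat knockouts, against 37.9, 36.3, 72.1 and 44.9 CPM in high-fat controls. Here knockout 1 was above control 2, so the groups overlapped. None of the 3 passed: the log2 fold changes were -0.59 with a standard error (SE) of 0.19 for Psmb6 (edgeR adjusted p = 0.112), -0.49, SE 0.16, for Psmb7 (0.119) and -0.56, SE 0.22, for Psmb5 (0.152). Without control 3 they were -0.28 (edgeR adjusted p = 0.359), -0.29 (0.386) and -0.27 (0.535).

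**Figure D3:**
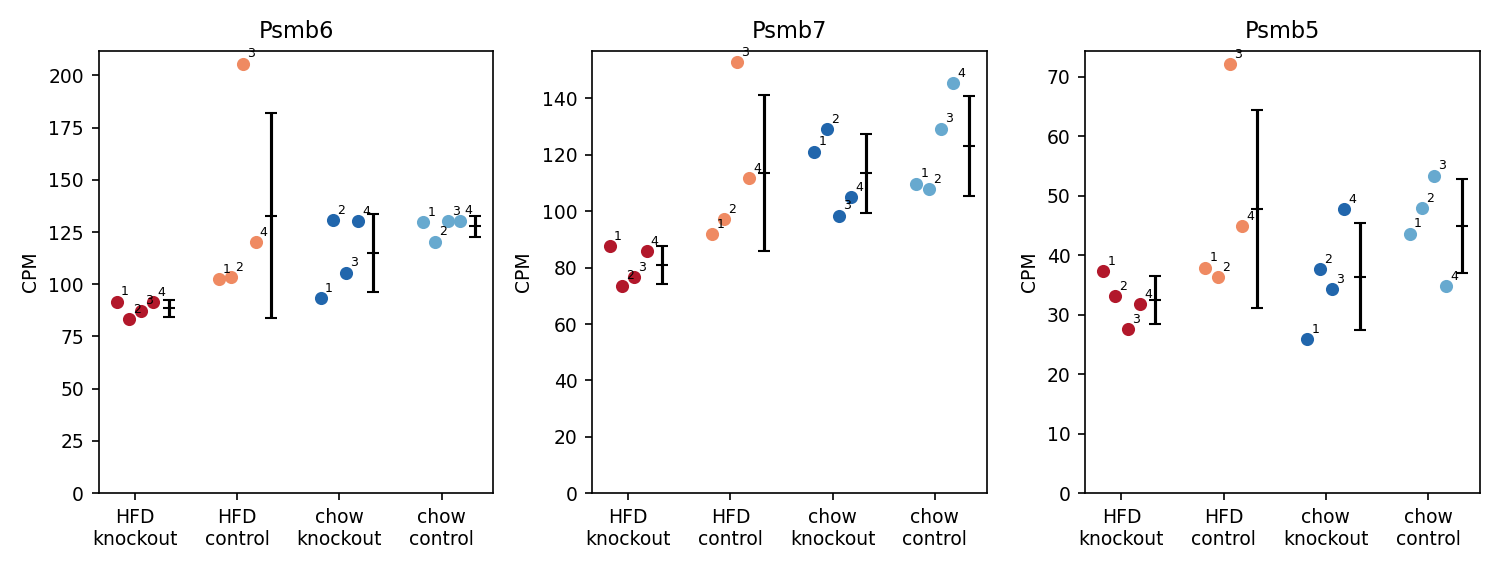
CPM of the catalytic subunits Psmb6, Psmb7 and Psmb5 in each liver (points, numbered by replicate; bars, mean and SD of 4), with high-fat groups left of chow groups and knockouts left of controls. High-fat control 3 is the highest of all livers in each panel, at 206, 153 and 72.1 CPM.

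The structural beta subunit Psmb1 (chr17:15475021-15499751, minus strand) had the smallest p of the 32. It was at 89.2, 73.0, 78.9 and 92.2 CPM in high-fat knockouts, against 102, 99.4, 229 and 119 CPM in high-fat controls. The groups did not overlap, and control 3 was at 2.14 times the mean of the other controls. Its log2 fold change was -0.72, SE 0.21 (edgeR adjusted p = 0.103), and -0.34, SE 0.11 (0.249), without control 3. Psmb2 and Psmb3 did not overlap either, and Psmb4 did, with 90.9 CPM in knockout 1 against 83.8 CPM in control 2. The 4 structural subunits had a median of -0.45.

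The alpha ring genes had a median of -0.59 and a range of -0.75 (Psma7) to -0.46 (Psma2). All 7 had an unadjusted p under 0.05, and 0 were called. Psma4, Psma6 and Psma7 did not overlap between high-fat knockouts and high-fat controls. Psma4 was at 71.6, 58.0, 56.1 and 72.4 CPM in high-fat knockouts, against 72.6, 75.1, 124 and 105 CPM in high-fat controls. Psma2 was at 63.4, 56.5, 54.7 and 68.3 CPM in high-fat knockouts, against 63.9, 68.7, 118 and 82.2 CPM in high-fat controls. For Psma2 the groups overlapped by knockout 4 and control 1. The fold changes of Psma4 and Psma2 were -0.54, SE 0.21 (edgeR adjusted p = 0.158), and -0.46, SE 0.17 (0.151). Without control 3 they were -0.37 (edgeR adjusted p = 0.478) and -0.22 (0.520), and Psma7 was at -0.24 (0.427).

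Fold changes in the regulatory particle are given by its parts. The 6 ATPases had a median of -0.33, with Psmc6 at -0.55 and Psmc5 at -0.21. Psmc1 did not overlap, at 82.2, 68.2, 70.8 and 80.8 CPM in high-fat knockouts, against 87.8, 82.9, 111 and 101 CPM in high-fat controls (log2 fold change -0.34, SE 0.14, edgeR adjusted p = 0.163). Psmc4 was at 84.3, 79.1, 75.8 and 91.2 CPM in high-fat knockouts, against 90.3, 90.0, 137 and 95.7 CPM in high-fat controls, and overlapped (-0.32, SE 0.15, edgeR adjusted p = 0.215). Without control 3, Psmc1, Psmc4, Psmc6 and Psmc5 were at -0.25, -0.14, -0.26 and -0.10 (edgeR adjusted p 0.449, 0.639, 0.510 and 0.817).

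The 4 genes of the base scaffold and ubiquitin receptors had a median of -0.26. Psmd2, a large scaffold subunit that docks ubiquitin-like domains, was at 160.2, 149, 152 and 165 CPM in high-fat knockouts, against 187, 182, 189 and 185 CPM in high-fat controls. For this gene control 3 was level with its group, the groups did not overlap, and the log2 fold change was -0.25, SE 0.12 (edgeR adjusted p = 0.243). The ubiquitin receptors Psmd4 and Adrm1 were at -0.37, SE 0.16 (edgeR adjusted p = 0.209), and -0.14, SE 0.14 (0.559). Without control 3, Psmd2 was at -0.22 (edgeR adjusted p = 0.459), Psmd4 at -0.20 (0.588) and Adrm1 at -0.06 (0.882).

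The 8 lid genes had a median of -0.37 and the widest range, from -0.63 for the deubiquitinase Psmd14 (SE 0.24, edgeR adjusted p = 0.145) to 0.02 for Psmd3. Psmd13 (chr7:140881968-140898643, plus strand) was at 45.4, 44.8, 44.0 and 42.6 CPM in high-fat knockouts, against 53.0, 51.8, 97.7 and 53.5 CPM in high-fat controls. The groups did not overlap, and the log2 fold change was -0.53, SE 0.17 (edgeR adjusted p = 0.112), or -0.24, SE 0.09 (0.303), without control 3. Psmd3 was at 61.5, 70.8, 68.3 and 71.8 CPM in high-fat knockouts, against 72.1, 69.7, 63.0 and 63.0 CPM in high-fat controls, with overlap. It was the 1 gene of the 32 above 0 in this comparison, and the 1 gene for which control 3 was not the highest of its group. Psmd11, another lid scaffold, was at -0.04, SE 0.14 (edgeR adjusted p = 0.892). Without control 3, Psmd14 was at -0.29 (edgeR adjusted p = 0.539), Psmd3 at 0.01 (0.963) and Psmd11 at 0.03 (0.936).

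High-fat control 3 held the highest value of all 16 livers for 24 of the 32 genes. Its level was 1.93 times the mean of the other 3 high-fat controls as a median over the core genes (range 1.47 to 2.62) and 1.41 times over the regulatory particle (range 0.923 to 2.02). Without it, the median log2 fold change of the 32 genes in high-fat knockouts was -0.21, against 0.02 over all genes, with 30 of 32 below 0. At an unadjusted p under 0.05, 6 were then lower, against 5.68% of all genes, and 0 were called. Groups did not overlap for 12 of 32, all lower in knockouts, against 10.2% of all genes. The core and the regulatory particle then had medians of -0.26 and -0.20. By sub-complex the medians were -0.26 for the alpha ring, -0.28 for the catalytic and -0.17 for the structural beta subunits, -0.17 for the ATPases, -0.20 for the base and -0.18 for the lid.

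The share of unspliced RNA ran opposite to the proteasome sums in this plot, lowest in the liver with the highest sums. With the log2 of that share as a covariate in edgeR, the median log2 fold change of the 32 genes in high-fat knockouts was -0.04, with 25 of 32 below 0 and 0 at an unadjusted p under 0.05 (3.07% of all genes were lower at that p). The share was 0.171% ± 0.0134 in high-fat knockouts and 0.0901% ± 0.0652 in high-fat controls (SD, n = 4 each). High-fat controls 1 to 4 were at 0.164%, 0.123%, 0.0218% and 0.0512%, against 0.162% to 0.191% in high-fat knockouts, so the groups overlapped. The mean share moved with genotype, and a covariate takes up what the groups share with it. Gene length moved with the fold changes as well: over all genes the median was -0.19 for the genes with exons no longer than the median of the 32 (2814 bases) and 0.08 for the longer ones. Within the 32 genes it was -0.44 for the shorter and -0.47 for the longer 16. With offsets for length and GC content the median of the 32 was -0.33, against -0.04 over all genes. Other abundant housekeeping messages lay lower in high-fat knockouts too. The median was -0.69 over 18 respiratory chain genes, with 0 called and a range of summed levels of 2296 to 2637 CPM in high-fat knockouts against 2873 to 5606 CPM in high-fat controls. It was -0.59 over 20 ribosomal protein genes, with 0 called and a range of 1790 to 1970 CPM in high-fat knockouts against 1962 to 4068 CPM in high-fat controls. Without control 3 the respiratory chain had a median of -0.33 and the ribosomal proteins one of -0.21, with 0 called. The parts that unspliced RNA and the spread of housekeeping messages play in the proteasome differences were not tested beyond these values.

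The same genes were compared between knockouts and controls on chow. The summed level of the 32 genes was 2398, 2985, 2301 and 2665 CPM in chow knockouts, against 2786, 2751, 2987 and 3124 CPM in chow controls. Chow knockout 2 lay among the controls, so the groups overlapped, as they did in unscaled share of counts (0.206% to 0.276% in chow knockouts against 0.250% to 0.298% in chow controls). In edgeR 0 of 32 genes were called, against 0.0139% of all genes. At an unadjusted p under 0.05, 2 of 32 were lower, against 4.42% of all genes, and 0 were higher. High-fat control 3 enters only the shared estimate of spread here. With that liver left out, 5 of 32 were lower at that p, against 5.95% of all genes, and 0 were higher. DESeq2 and limma-voom also called 0. The log2 fold change was below 0 for 29 of 32, against 51% of all genes, and the median was -0.16 against -0.01 over all genes. Groups did not overlap for 4 of 32, all lower in knockouts, against 2.9% of all genes. These were Psmb1, Psmb4, Psmd3 and Psmd8.

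**Figure D4:**
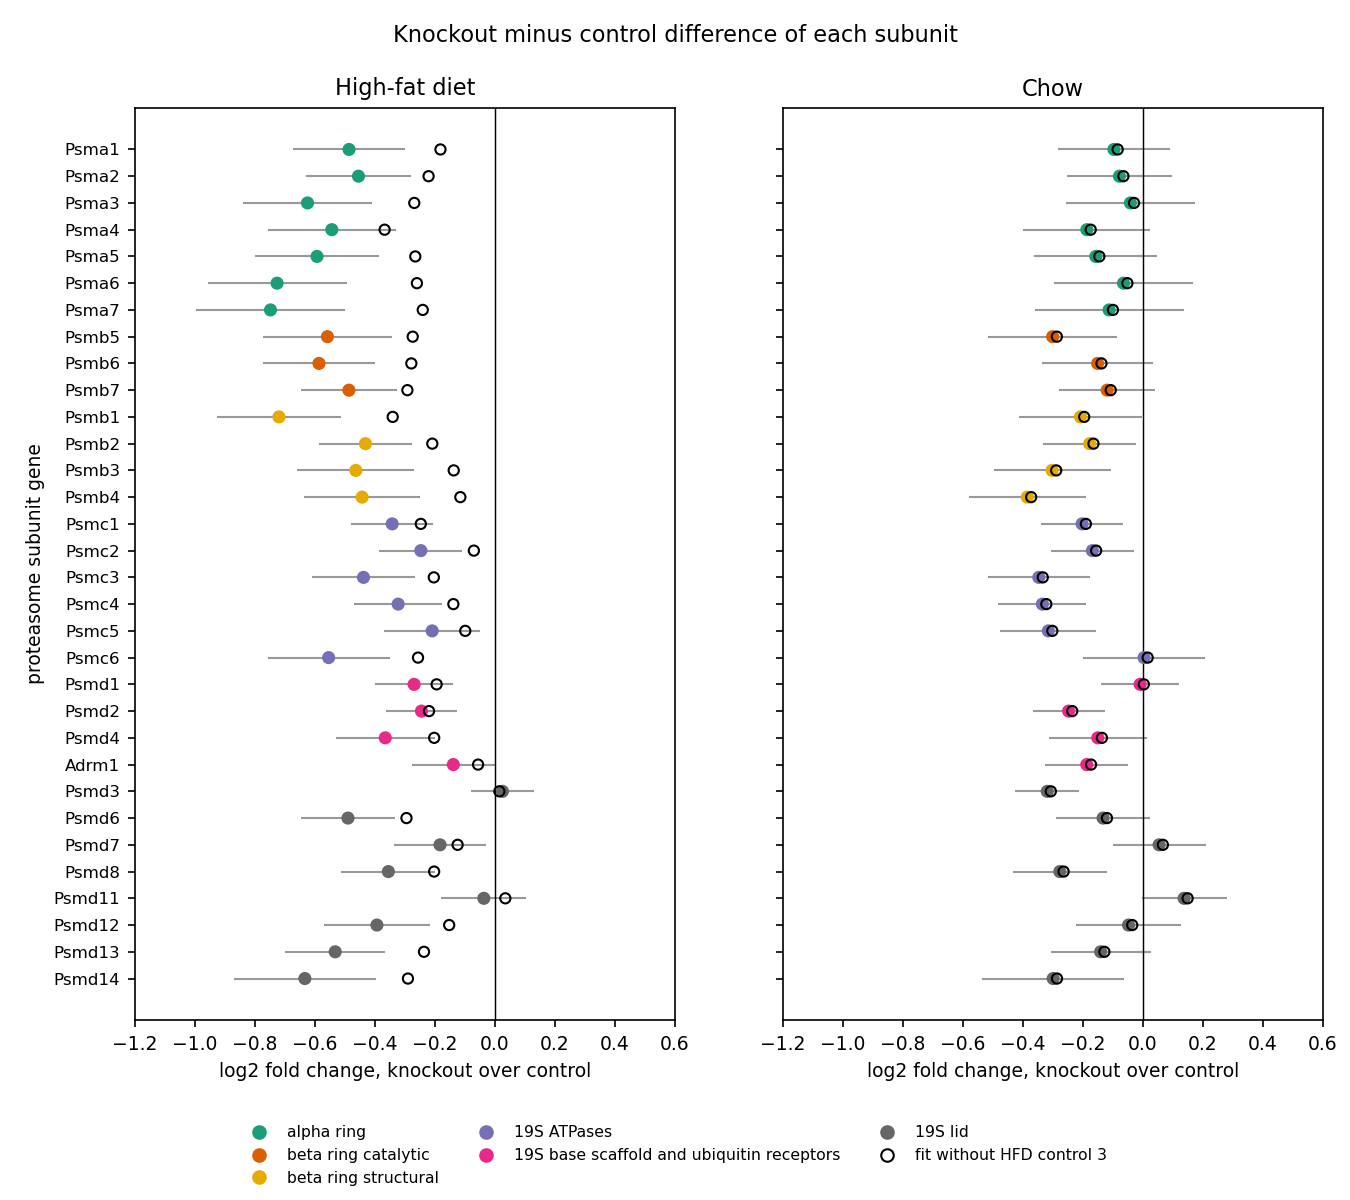
Log2 fold change of knockout over control for each of the 32 genes on the high-fat diet and on chow (points; lines, SE from edgeR), ordered by sub-complex. On the high-fat diet 31 of 32 are below 0 and on chow 29 of 32, and 0 pass the test across all genes on either diet.

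Psmd3 had the smallest p of the 32 on chow, at 64.4, 56.2, 61.0 and 68.8 CPM in chow knockouts, against 75.0, 79.0, 74.9 and 83.5 CPM in chow controls. The groups were well apart, and the log2 fold change was -0.32, SE 0.11 (edgeR adjusted p = 0.426). Psmc4 was at 73.5, 99.4, 76.4 and 88.4 CPM in chow knockouts, against 98.8, 103, 121 and 104 CPM in chow controls. Chow knockout 2 was just above control 1, and the log2 fold change was -0.34, SE 0.15 (edgeR adjusted p = 0.498). Psmd2 was at 176, 197, 159.9 and 181 CPM in chow knockouts, against 195, 190.3, 201 and 261 CPM in chow controls. Here the groups overlapped and chow control 4 was the highest (-0.25, SE 0.12, edgeR adjusted p = 0.531).

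The catalytic subunits overlapped between chow knockouts and chow controls. Psmb6 was at 93.4, 131, 106 and 130.1 CPM in chow knockouts, against 129.6, 120.4, 130.4 and 130.4 CPM in chow controls (log2 fold change -0.15, SE 0.18, edgeR adjusted p = 0.808). Psmb7 was at 121, 129, 98.4 and 105 CPM in chow knockouts, against 109.8, 108, 129 and 146 CPM in chow controls (-0.12, SE 0.16, edgeR adjusted p = 0.825). Psmb5 was at 25.8, 37.7, 34.4 and 47.7 CPM in chow knockouts, against 43.6, 48.0, 53.4 and 34.8 CPM in chow controls (-0.30, SE 0.22, edgeR adjusted p = 0.662). Chow knockout 1 was the lowest of all 16 livers for Psmb5. With unspliced share added to the model the median of the 32 genes in chow knockouts was 0.09, on the other side of 0.

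Whether the knockout difference depends on diet was tested as an interaction, in which edgeR called 0 of 32 genes and 0 of 14351 genes, and DESeq2 and limma-voom 0 of 32. At an unadjusted p under 0.05, 1 of 32 genes had a higher interaction term (5.37% of all genes) and 0 a lower term (5.89%). That gene was Psmd3, at 0.34, SE 0.15 (edgeR adjusted p = 0.403). The median interaction of the 32 was -0.26, and -0.10 without high-fat control 3. Taken as the mean over both diets, the knockout difference had a median of -0.31, with 0 of 32 called by edgeR, DESeq2 or limma-voom (edgeR called 0.174% of all genes), and 25 of 32 lower at an unadjusted p under 0.05 against 11.6% of all genes. Without high-fat control 3, that count was 16, against 7.75%.

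Among knockouts, the summed core level was 896, 796, 799 and 921 CPM in high-fat knockouts, against 998, 1255, 993 and 1160 CPM in chow knockouts, without overlap. The summed level of all 32 genes was 2012 to 2276 CPM in high-fat knockouts, against 2301 to 2985 CPM in chow knockouts. For that sum the direction depends on the TMM scaling, whose factors were 1.11 to 1.21 and 0.859 to 0.963 in these groups. No unscaled share was taken for the core alone. As an unscaled share of all counts the 32 genes made up 0.249% ± 0.0189 in high-fat knockouts and 0.237% ± 0.0308 in chow knockouts (SD, n = 4 each), and the groups overlapped. This comparison shares the high-fat knockouts with the knockout comparison on that diet, so both hold the same low livers. In edgeR 0 of 32 genes were called, against 10.6% of all genes. At an unadjusted p under 0.05, 8 of 32 were lower, against 14% of all genes, and 0 higher. DESeq2 called 1 gene, Psmb7 (adjusted p = 0.0429), against 6.21% of genes, and limma-voom 0. The median log2 fold change was -0.27, against 0.02 over all genes, and 30 of 32 were below 0, against 48.1%. The core and the regulatory particle had medians of -0.37 and -0.19. Groups did not overlap for 11 of 32, all lower on the high-fat diet, against 12.4% of all genes.

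Psmb7 had the smallest p, at 87.6, 73.6, 76.5 and 86.0 CPM in high-fat knockouts, against 121, 129, 98.4 and 105 CPM in chow knockouts. The groups did not overlap, and the log2 fold change was -0.49, SE 0.16 (edgeR adjusted p = 0.0576). Psma2 was at 63.4, 56.5, 54.7 and 68.3 CPM in high-fat knockouts, against 70.7, 107, 79.0 and 85.3 CPM in chow knockouts, without overlap (-0.49, SE 0.17, edgeR adjusted p = 0.0738). Psma4 was at 71.6, 58.0, 56.1 and 72.4 CPM in high-fat knockouts, against 62.7, 127, 89.9 and 103 CPM in chow knockouts (-0.57, SE 0.21, edgeR adjusted p = 0.0900). For Psma4 chow knockout 1 lay within the high-fat range.

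High-fat control 3 is not in this comparison, but it enters the shared estimate of spread. With it left out, 9 of 32 genes were called lower, against 10.2% of all genes. They were Psmb7 (log2 fold change -0.48, edgeR adjusted p = 0.0143), Psma2 (-0.49, 0.0164), Psma3 (-0.51, 0.0174), Psmb1 (-0.38, 0.0211), Psma6 (-0.36, 0.0223), Psmb6 (-0.37, 0.0284), Psmd12 (-0.44, 0.0291), Psmc6 (-0.46, 0.0394) and Psma5 (-0.41, 0.0416). Of the 9, 7 belong to the core. A fit of the 2 knockout groups alone called 7 of 32, against 9.89% of all genes. With unspliced share added to the model, 0 were called and the median was 0.11, above 0.

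Among controls, the median of the 32 genes on the high-fat diet was -0.04, against 0.01 over all genes, and 0.01 with upper-quartile scaling. In edgeR 0 of 32 were called, against 1.83% of all genes, 17 of 32 were below 0 (48.7% of all genes), and 0 had an unadjusted p under 0.05 in either direction (7.09% of all genes were lower and 9.98% higher). DESeq2 and limma-voom called 0 of 32 as well. Groups did not overlap for 2 of 32, Psmd2 and Psmd3, both lower on the high-fat diet, against 4.01% of all genes. Psmd3 was at 72.1, 69.7, 63.0 and 63.0 CPM in high-fat controls, against 75.0, 79.0, 74.9 and 83.5 CPM in chow controls (log2 fold change -0.22, SE 0.11, edgeR adjusted p = 0.296). Psmd2 was at 187, 182, 189 and 185 CPM in high-fat controls, against 195, 190.3, 201 and 261 CPM in chow controls (-0.19, SE 0.12, edgeR adjusted p = 0.452). Psmc1 was at 87.8, 82.9, 111 and 101 CPM in high-fat controls, against 105, 101, 110.0 and 126 CPM in chow controls (-0.21, SE 0.14, edgeR adjusted p = 0.483).

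This comparison turned on high-fat control 3. Without it the median in controls was -0.20, against -0.01 over all genes, with 31 of 32 below 0 and 7 lower at an unadjusted p under 0.05 (8.85% of all genes). Groups did not overlap for 13 of 32, against 8.33% of all genes. Psmb4 was then called lower (log2 fold change -0.45, edgeR adjusted p = 0.0428, against 2.18% of all genes called lower). With all 4 controls its value was -0.14, SE 0.19 (edgeR adjusted p = 0.780). With unspliced share added to the model the direction was the other way, with a median of 0.21 and Psma7 (log2 fold change 0.68, edgeR adjusted p = 0.0103), Psma6 (0.61, 0.0216) and Psma1 (0.39, 0.0471) called higher, against 3.37% of all genes.

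Genes that work with the proteasome were compared in the same fits. In the knockout comparisons 0 of the 41 genes tested in these lists were called on either diet. Assembly chaperones, which build the core and the base, had a median of -0.37 over 8 genes in high-fat knockouts against high-fat controls, led by Psmd10 at -0.67, SE 0.26 (edgeR adjusted p = 0.155), and Pomp at -0.41, SE 0.18 (0.190). Without high-fat control 3 the median was -0.17, with Psmd10 at -0.27 (edgeR adjusted p = 0.587) and Pomp at -0.18 (0.613). Bound deubiquitinases and accessory proteins had a median of -0.29 over 6 genes, led by Sem1, a small lid subunit, at -0.39, SE 0.13 (edgeR adjusted p = 0.125). Without that liver the median was -0.17 and Sem1 was at -0.25 (edgeR adjusted p = 0.390). The immunoproteasome and PA28 genes had a median of 0.01 over 5 genes, with Psme2 at -0.32, SE 0.23 (edgeR adjusted p = 0.422), and Psmb9 at 0.22, SE 0.25 (0.614). Without that liver the median was 0.26, Psme2 lay on the other side of 0 at 0.10 (edgeR adjusted p = 0.791) and Psmb9 was at 0.56 (0.309). Other activators and the inhibitor had -0.14 over 3 genes, ubiquitin genes -0.18 over 4, ubiquitin activation -0.05 over 2, and shuttle factors with the p97 complex -0.08 over 9. Without that liver these medians were -0.22, 0.02, -0.01 and -0.06. The transcriptional regulators had a median of 0.11 over 4 genes, and -0.06 without it. Nfe2l1, the regulator named above, was at 116, 119, 113 and 111 CPM in high-fat knockouts, against 123, 123, 63.0 and 114 CPM in high-fat controls. Control 3 was the lowest of all 16 livers for Nfe2l1 while it was the highest for most subunits. Nfe2l1 had a log2 fold change of 0.12 (edgeR adjusted p = 0.699), and of -0.04 (0.904) without control 3, so that liver sets its sign. Without it 0 related genes were called in this comparison.

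On chow the medians in knockouts against controls were -0.12 for assembly chaperones, -0.04 for deubiquitinases and accessory proteins, -0.23 for the immunoproteasome and PA28, 0.04 for other activators and the inhibitor, -0.48 for ubiquitin genes, 0.04 for ubiquitin activation, -0.05 for shuttle factors and 0.14 for transcriptional regulators.

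Between diets, 5 of the 41 genes were called in knockouts, where 10.6% of all genes were called, a share near that background. In controls 0 were called (1.83% of all genes). Without high-fat control 3 the fit called 3 lower, where 2.18% of all genes were called lower. These were Psme1 (log2 fold change -0.86, edgeR adjusted p = 0.00289), Rps27a (-0.61, 0.0142) and Txnl1 (-0.47, 0.0411). In the interaction 0 of the 41 were called. Psmb9, a catalytic subunit of the immunoproteasome, rose on the high-fat diet to 16.9, 18, 23.1 and 21.1 CPM in high-fat knockouts, against 7.41, 8.35, 12.2 and 13.8 CPM in chow knockouts (log2 fold change 0.92, SE 0.26, edgeR adjusted p = 0.0323). No liver of either group overlapped. Psmb9 was not called without chow knockout 1 or 2 or without any of the 4 high-fat knockouts (edgeR adjusted p up to 0.106), with log2 fold changes of 0.79 to 1.38 over all alternatives. Rps27a, a ubiquitin gene fused to a ribosomal protein, fell (-0.87, SE 0.18, edgeR adjusted p = 0.00906), and was called in all 16 fits that left out 1 liver. In the same comparison 20 of 20 ribosomal protein genes were below 0, with a median of -0.68. Of these, 11 were called lower, where 5.35% of all genes were called lower. The 18 respiratory chain genes had a median of -0.36 with 0 called. Uchl5, a deubiquitinase that binds Adrm1, fell (-0.72, SE 0.18, edgeR adjusted p = 0.0167), but not without chow knockout 2 or high-fat knockout 1, 2 or 3 (up to 0.0604). Sem1 fell (-0.54, SE 0.13, edgeR adjusted p = 0.0179), but not without chow knockout 2 or high-fat knockout 1 or 2 (up to 0.0799), nor with no filter on low counts (0.0537). Psme4, which encodes the activator PA200, fell (-0.47, SE 0.14, edgeR adjusted p = 0.0439) and was called in 3 of the 16 fits that left out 1 liver. Its call was also lost with upper-quartile scaling (edgeR adjusted p = 0.0910), no filter on low counts (0.142) and a minimum count of 50 (0.0615). With unspliced share added to the model, Rps27a (-0.46, edgeR adjusted p = 0.0937), Sem1 (-0.26, 0.208) and Uchl5 (-0.73, 0.0542) were not called.

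Markers of other cell types were measured in the same livers. Hepatocyte markers (9 of 10 tested) summed to 61522 to 83755 CPM in high-fat knockouts, 81519 to 118530 in high-fat controls, 119960 to 142070 in chow knockouts and 109420 to 128890 CPM in chow controls, and 9 of 9 were below 0 in high-fat knockouts against high-fat controls, with 0 called. In high-fat knockouts against chow knockouts 8 of 9 hepatocyte markers were below 0. Of these, 3 were called lower, Alb, Serpina1a and Pck1, where 5.35% of all genes were called lower. In that comparison 1 marker each was called higher for Kupffer cells (Cd68, edgeR adjusted p = 0.0497), lymphocytes (Cd8a, 0.0227), stellate cells (Pdgfrb, 0.0144) and adipose tissue (Cfd, 0.0201). Of all genes, 5.21% were called higher there. The cholangiocyte marker Cdh1 was called lower (edgeR adjusted p = 0.0119). By direction, 5 of 8 Kupffer, 5 of 5 lymphocyte, 5 of 8 stellate and 4 of 6 cholangiocyte markers were above 0. Cd8a was at 0.52, 0.62, 2.98 and 0.87 CPM in high-fat knockouts, against 0 to 0.30 CPM in chow knockouts. Cfd was at 3.5, 1.6, 0 and 7.3 CPM, against 0 to 0.24 CPM. In chow knockouts 3 reads stand for 0.1645 to 0.2513 CPM. Kupffer cell and macrophage markers (8 of 8 tested) summed to 315 to 615 CPM in high-fat knockouts, 274 to 617 in high-fat controls, 294 to 472 in chow knockouts and 274 to 751 CPM in chow controls. Lymphocyte markers (5 of 8 tested) summed to 3.86 to 18.4 CPM in high-fat knockouts, 3.38 to 7.0 in high-fat controls, 3.02 to 5.74 in chow knockouts and 3.20 to 6.64 CPM in chow controls. The sums of stellate (8 of 8), endothelial (8 of 8) and cholangiocyte (6 of 6) markers overlapped between knockouts and controls on each diet. Of the adipose and pancreas markers, 2 of 7 were tested, Prss1 was at 0 in every liver, and Adipoq reached 6.59 CPM in high-fat knockout 4 and no more than 0.35 CPM elsewhere. The part of these cell types in the proteasome levels was not tested.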

How the data were processed

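RNA-seq of 16 mouse livers was deposited by the authors as raw counts per Ensembl gene, 1 column a liver. Per the labels' protocols, libraries were stranded and depleted of ribosomal RNA. The submitters' processing notes name STAR 2.5.4a, featureCounts 1.5.1, DESeq2 and the GRCm38 build. The strand setting, treatment of multiply mapped reads and annotation release are not stated in the available sources.

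Counts were analysed in R 4.3.3 with edgeR 4.0.16: TMM scaling, a filter on low counts (filterByExpr, minimum count 10), 1 quasi-likelihood fit of all 16 livers by group, and Benjamini-Hochberg adjustment over the 14351 genes kept, with a threshold of 0.05. CPM uses TMM-scaled library sizes, and the common biological coefficient of variation was 0.247. Standard errors were taken from each log2 fold change and its F statistic, as the size of the change divided by the root of F. The fitting was run on simulated counts in which genes picked at random were changed. Those counts held no outlying liver and no shift shared by a set of genes, so that run does not check for either. Alternatives were DESeq2 1.42.0, limma 3.58.1 (voom), other scalings, other count filters, only the groups compared, each liver left out, offsets for length and GC content, and the unspliced share as a covariate. Exact permutation tests were used for Degs1.

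The 32 genes, the related lists and the tests were chosen with earlier results of these data known. Values per liver are given for the catalytic subunits and for the 3 genes of smallest p in each comparison between groups. Of the related lists, the rule names the genes called and the 2 of smallest p in each comparison; the text gives those called and a selection of the others, chosen after their values were seen, beside each list's median. Livers are separate animals per the labels, so p-values measure the spread between livers. The 24 pairs of livers within groups differed by more than sampling noise (chi-square per degree of freedom 13.4 to 139.7).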

Additional observations from a re-analysis of the deposited data

Results flagged for a closer look

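For each of the 32 genes and 4 summed measures, the highest and lowest liver of each group of 4 was set against the rest of its group by Dixon's test, in 144 checks. Chance gives about 1 in 20 for a single check. The checks share the same livers, so they are not separate trials and their count is not set against that rate. A liver stood apart in 17. High-fat control 3 accounted for 8 of them, always as the highest. It held Psma6 at 168.5 CPM (next highest high-fat control 73.9), Psma7 at 218.3 CPM (96.2), Psmb6 at 205.6 CPM (120.0), Psmb1 at 228.8 CPM (118.5), Psmb2 at 90.29 CPM (56.2), Psmb3 at 82.65 CPM (44.7), Psmc4 at 137.2 CPM (95.7) and Psmd13 at 97.74 CPM (53.5). The same liver had the lowest unspliced share of the 16, 0.0218%.

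In high-fat knockouts, liver 4 was the highest for Psma5, at 24.84 CPM, and the lowest for Psmd7, at 32.5 CPM. In chow knockouts, liver 3 was the lowest for Psmb1, at 98.47 CPM, and liver 2 the highest for Psmc1, at 118.6 CPM. In chow controls, liver 4 was the highest for Psmd1, at 158.4 CPM, for Psmd2, at 261.2 CPM, and for Psmd12, at 91.62 CPM. Chow control 2 was the lowest for Psmb6, at 120.4 CPM, and chow control 3 the lowest for Psmd11, at 61.78 CPM.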

How the results depend on the processing

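No paired analysis was possible because each liver has its own animal number and replicate numbers follow accession order only. No gene of the 32 was called in chow knockouts against chow controls, or in the interaction, under any alternative run. Elsewhere the count of 0 called moved: DESeq2 called 1 in high-fat knockouts against high-fat controls and 1 in high-fat against chow knockouts. With no filter on low counts edgeR called 6 and 1 lower in the same comparisons (1.43% and 2.04% of all genes) and 5 for the mean over diets (1.09%). With only the groups compared it called 7 in high-fat against chow knockouts, and Degs1 on the high-fat diet was at -1.231 (edgeR adjusted p = 0.138). Leaving out 1 liver gave 0 to 9 called in high-fat against chow knockouts (9 without high-fat control 3 and 1, Psma4, without chow knockout 1) and 0 to 1 in high-fat against chow controls. It moved the median in high-fat knockouts between -0.5654 and -0.2144 (this last without high-fat control 3) and Degs1 on chow between -1.174 and -1.122, where 7 of 16 fits lost the call (edgeR adjusted p 0.0568 to 0.118: without chow knockout 1, 2, 3 or 4 or chow control 1, 3 or 4). In controls between diets it moved Psmb5 between -0.1775 and 0.2263 and Psmb6 between -0.2342 and 0.1893, and the Psmb5 interaction between -0.4048 and 0.01275. Without both high-fat control 3 and chow knockout 1, the high-fat knockout median was -0.2142, Psmb5 and Psmb6 in controls between diets were -0.1774 and -0.2343, and 1 gene was called lower in controls (2.95% of all genes) and 12 in knockouts (11.2%) between diets. With limma-voom Psmb6 in controls between diets was -0.005575. With unspliced share added to the model, the medians were -0.04374 for high-fat and 0.09075 for chow knockouts against controls, 0.1117 for knockouts and 0.2109 for controls between diets, and 0.02604 for the mean over diets, and 3 genes were called in controls between diets. In that fit Degs1 was at -0.9171 on the high-fat diet (edgeR adjusted p = 0.0534) and -0.9564 on chow (0.0542). Psmb5, Psmb6 and Psmb7 were at 0.00919, 0.1464 and 0.09616 in chow knockouts against chow controls, Psmb5 and Psmb6 at 0.3649 and 0.1249 between diets in knockouts, Psmb7 at 0.09423 between diets in controls, and Psmb6 at 0.03408 for the mean over diets. Upper-quartile scaling moved the median of all genes between diets in knockouts to 0.115, against 0.0219, and that of the 32 to -0.18. The causes of these changes were not tested. Medians by sub-complex, counts without overlap and calls of related genes under other settings were chosen after seeing the data. With 4 livers a group, small differences were not detectable for genes as variable as Psma7 was with high-fat control 3 in its group.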
